A study of Mus musculus with 15 samples.

Results

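The 39 Hox genes of the mouse were described in RNA-seq libraries of colon cancer organoids, self-organising cultures of tumour epithelium. The members were all genes whose symbol is Hoxa, Hoxb, Hoxc or Hoxd followed by a number, 39 of the 54418 gene IDs in the count table. All 39 were present, and 19 held enough reads to be tested. The study passed tumours through mice in repeated rounds: organoids grown from metastases in the liver, or from the primary tumour in the colon, were put back into the colon, and new organoids were made from the tumours that followed. The 15 libraries came as 5 groups of 3 replicates: Met1, Met2 and Met3 (organoids from metastases of rounds 1, 2 and 3), and Primary2 and Primary3 (organoids from primary tumours of rounds 2 and 3). All carried the genotype labelled AKP and the recipients were C57Bl6 mice. No treatment and no age of the mice is given in the labels. They also do not say whether the replicates of a group were separate organoid lines or came from separate mice, so p-values measure the spread between these libraries, which may be technical in part.

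Hox genes encode homeodomain transcription factors that set position along the body axis. They lie in 4 clusters, and genes at the 3′ end of a cluster (low numbers) act in anterior parts of the embryo, while those at the 5′ end (high numbers) act in posterior parts. The gut keeps part of this code in the adult: the group 13 genes mark the hindgut, and Hoxb13 is a known marker of distal colon epithelium. Polycomb complexes keep silent Hox genes silent, Trithorax-type complexes keep active ones active, and Cdx factors and retinoic acid switch on members of the clusters in the embryo.

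Total counts ran from 14122203 (Primary3 replicate 1) to 21306543 (Primary2 replicate 2), so that 3 counts, taken as the detection floor, came to 0.137 to 0.220 CPM (counts scaled to a common library size) in a library. CPM here are scaled by TMM factors, which correct for differences in library composition. Epithelial markers (10 of 10 present) summed to 6170 to 16240 CPM. They were at 11440 to 14300 CPM in Met1, 6504 to 15310 in Met2 and 12200 to 16240 in Met3. In Primary2 they were at 6170 to 8931 CPM and in Primary3 at 7243 to 8685. Fibroblast (0 to 5.16), smooth muscle (0 to 1.51) and endothelial markers (0.0674 to 0.549) were near 0, and 5 of 8, 5 of 5 and 5 of 5 of them never reached 1 CPM. Immune markers summed to 3.71 to 29.0 CPM, nearly all of it Cd68, and the other 6 of 7 never reached 1 CPM. They were at 8.37 to 29.0 CPM in the metastasis groups, against 3.71 to 11.8 in the primaries. Hepatocyte markers, relevant to organoids taken from liver, summed to 0.289 to 6.36 CPM and were highest in Met1 (1.70 to 6.36). Of these 8 markers 7 never reached 1 CPM. Neural crest and glial markers summed to 0.265 to 4.69 CPM, mostly S100b, and were higher in the primaries. A single ribosomal RNA gene took 2.01 to 7.52% of the counts, with 6.24 to 7.52% in Met2 and 6.59 and 7.03% in Primary3 replicates 2 and 3. The part of these marker levels and of this share in the Hox differences was not tested. Met2 replicate 1 stood apart from its group: a chi-square of its counts came to 95.85 and 117.4 per gene against the other two Met2 libraries, which differed from each other by 49.3. Where leaving it out ended or added a call of a Hox gene, the value without it is given. Primary3 replicates 2 and 3 were the closest pair within a group, at 11.58 per gene, against 37.67 or more for every other pair. The labels do not say whether they were made separately.

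Transcription came from the Hoxa and Hoxb clusters. On GRCm38 the Hoxa cluster spans chromosome 6, 52155590 to 52260880 (minus strand), and its 11 genes held 94633 counts over the 15 libraries. The Hoxb cluster spans chromosome 11, 96194316 to 96368256 (plus strand), and its 10 genes held 32987 counts. The 9 Hoxc genes (chromosome 15, 102921103 to 103036852) held 11 counts in all, 9 of them from Hoxc9 and 2 from Hoxc6. The 9 Hoxd genes (chromosome 2, 74668310 to 74765142) held 24 counts, from Hoxd4 (12), Hoxd8 (7), Hoxd9 (3), Hoxd11 and Hoxd13. By library these were 2, 0 and 5 in Met1, 3, 4 and 0 in Met2 and 3, 6 and 0 in Met3. Primary2 held 0, 0 and 1 and Primary3 held 0 in each library, and this difference was not tested. No Hoxc or Hoxd gene exceeded 3 counts in a library. In total 11 members, 7 of Hoxc and 4 of Hoxd, had 0 counts in every library, which allows up to 0.0112 CPM over the 15 libraries. Hoxb1 (1 count) and Hoxb2 (6 counts) were also below the filter. All 11 Hoxa genes and the remaining 8 Hoxb genes were tested.

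Per kilobase of exon, the highest Hoxa levels in every group lay in the run from Hoxa9 to Hoxa11, genes of the posterior trunk. Hoxa11 stood at 28.5, 40.7, 20.9, 21.2 and 21.2 CPM per kb in Met1, Met2, Met3, Primary2 and Primary3. Hoxa10 stood at 31.4, 25.5, 15.6, 26.2 and 23.6 CPM per kb in the same groups. The anterior Hoxa2, Hoxa3 and Hoxa4 stayed at or below 3.20 CPM per kb in all 5 groups. Among Hoxb genes, Hoxb13 had the highest mean level per kb in Met1 (45.2), Met3 (6.79), Primary2 (19.6) and Primary3 (24.8). In Primary2 Hoxb7 (19.25) and Hoxb9 (18.3) lay close to it, and Hoxb13 varied between the libraries (23.3, 72.9 and 33.5 CPM). In Met2 the mean of Hoxb9 (19.8) lay above that of Hoxb13 (8.45), which rests on replicate 1. There Hoxb9 read 138.7, 13.8 and 0.514 CPM and Hoxb13 17.6, 19.6 and 18.7 CPM in replicates 1 to 3. Hoxa13 lay below its neighbour Hoxa11 in all 5 groups.

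**Figure D1:**
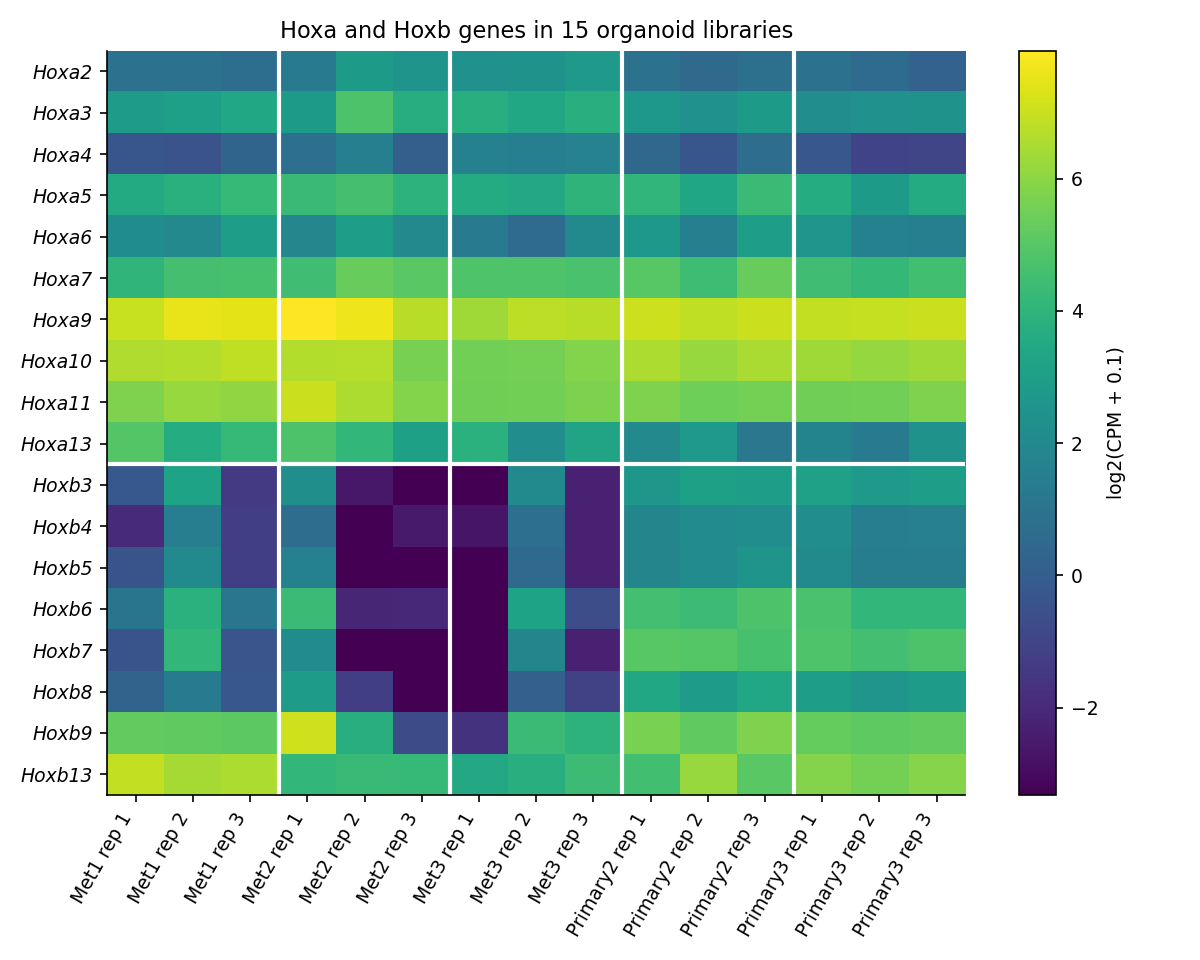
Heatmap of log2(CPM + 0.1) for 18 tested Hox genes (rows, in cluster order from anterior to posterior) in the 15 libraries (columns, 3 replicates a group). The Hoxb3 to Hoxb8 rows are dark in most metastasis libraries and lighter in all 6 primary libraries, while Hoxa9 to Hoxa11 are bright throughout.

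The main comparison set organoids from the later metastases (Met2 and Met3, 6 libraries) against organoids from primary tumours of the same rounds (Primary2 and Primary3, 6 libraries). Of the 19 members tested, 5 rose, all in Hoxa (Hoxa2, Hoxa3, Hoxa4, Hoxa11 and Hoxa13), and 3 fell, all in Hoxb (Hoxb7, Hoxb8 and Hoxb13). Over all 14925 genes tested, 14.3% rose and 16.1% fell (edgeR quasi-likelihood test, Benjamini-Hochberg adjusted p under 0.05). The median log2 change was 0.30 over the 11 Hoxa genes and -2.37 over the 8 Hoxb genes, against 0.01 over all genes. In bulk libraries, fewer cells that use a gene and less RNA per cell cannot be told apart. Leaving out Met2 replicate 1 gave 4 members higher and all 8 Hoxb members lower, and limma-voom gave 4 higher and 7 lower. The shares of 14.3% and 16.1% belong to the main fit, and those of these alternatives are not reported here.

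**Figure D2:**
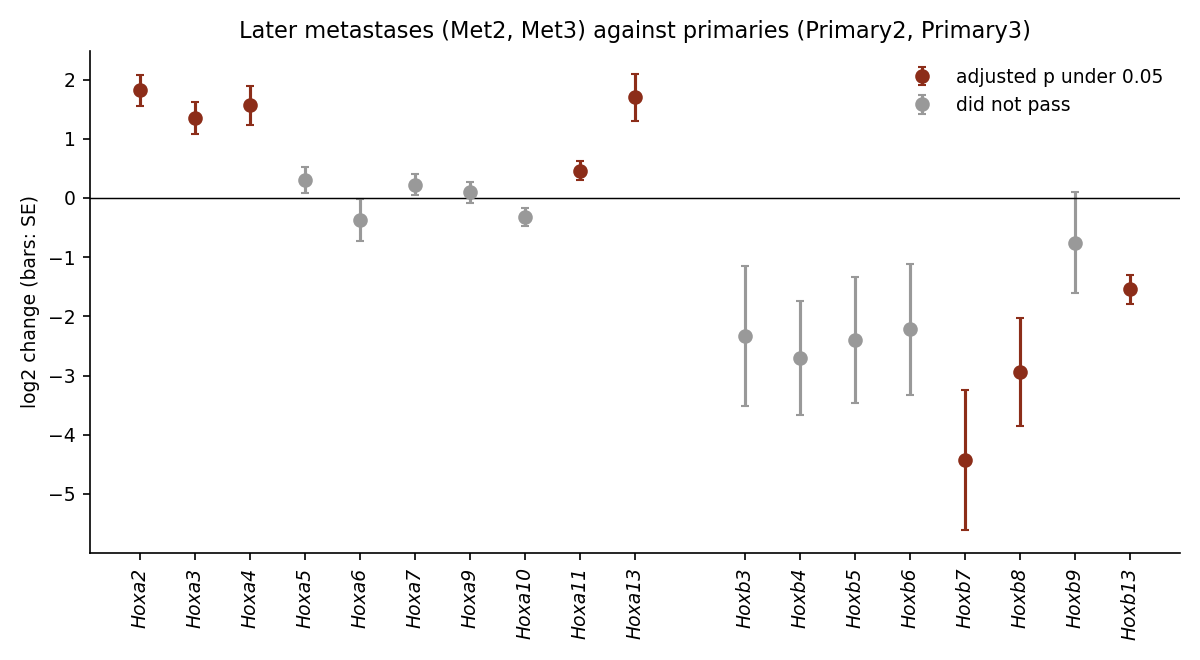
Log2 change of 18 tested Hox genes in Met2 and Met3 (6 libraries) against Primary2 and Primary3 (6 libraries), in cluster order. Bars show an approximate standard error. The Hoxa genes shown lie between -0.37 and 1.82 and the 8 Hoxb genes lie below 0, with wide errors for Hoxb3 to Hoxb9.

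Hoxa2, which patterns the hindbrain and branchial arches in the embryo (chromosome 6, 52162417 to 52164831), was a low but raised member. It read 2.41, 7.03 and 5.58 CPM in the Met2 libraries and 5.12, 5.19 and 6.71 in Met3, against 1.72, 1.39 and 1.71 in Primary2 and 1.75, 1.41 and 1.06 in Primary3. All 6 later metastasis libraries lay above all 6 primary libraries, the lowest being Met2 replicate 1. Its difference in log2 was 1.82 (SE 0.26, adjusted p = 0.000411). Met1 read 1.75, 1.75 and 1.56 CPM. Replicates 1 and 2 lay at the upper end of the primaries, and replicate 3 lay at their median of 1.56 CPM.

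Hoxa3, a gene of the pharyngeal arches and anterior trunk (chromosome 6, 52169062 to 52213336), read 6.90, 27.3 and 13 CPM in Met2 and 13.4, 10.7 and 13.7 in Met3. The Primary2 libraries held 6.29, 5.10 and 6.83 CPM of Hoxa3 and the Primary3 libraries 4.45, 5.14 and 5.48. The groups did not overlap, but Met2 replicate 1 lay just above the highest primary library. Hoxa3 rose by 1.35 in log2 (SE 0.27, adjusted p = 0.00281).

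Hoxa4, whose start lies within the span of Hoxa3 (chromosome 6, 52189671 to 52191753), was the lowest of the changed Hoxa genes. It read 1.61, 2.84 and 0.955 CPM in Met2 and 2.96, 2.77 and 3.09 in Met3, against 1.29, 0.695 and 1.52 in Primary2 and 0.741, 0.386 and 0.412 in Primary3. All Met3 libraries lay above all primaries, while Met2 replicate 3 lay inside the Primary2 range. Its difference in log2 was 1.57 (SE 0.33, adjusted p = 0.00384).

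Hoxa13, the posterior end of the cluster and a gene of the hindgut, genital and limb buds (chromosome 6, 52257694 to 52260880), read 27.7, 17.5 and 8.30 CPM in Met2 and 14.5, 4.50 and 9.43 in Met3. It read 3.87, 6.72 and 2.18 CPM in Primary2 and 3.30, 2.44 and 5.48 in Primary3. The lowest metastasis library, Met3 replicate 2, lay below 2 primary libraries, and the others lay above all of them. Its difference in log2 was 1.70 (SE 0.40, adjusted p = 0.00705). In Met1 Hoxa13 read 30.3, 12.5 and 18.4 CPM, above all primaries in 3 of 3 libraries.

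Hoxa11, a gene of limb, kidney and genital tract patterning (chromosome 6, 52242106 to 52245810), read 128.9, 93.7 and 56.9 CPM in Met2 and 45.1, 46.3 and 52.3 in Met3, against 53.7, 43.8 and 47.9 in Primary2 and 45.5, 46.5 and 53.6 in Primary3. The Met2 libraries lay above all primaries and the Met3 libraries among them. The call over both rounds was slight (log2 0.46, SE 0.16, adjusted p = 0.0449) and was lost under 15 of 19 alternative settings, among them limma-voom (0.0665) and the fit without Met2 replicate 1 (0.0888).

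Of the other Hoxa genes none passed. Hoxa5 (log2 0.30), Hoxa7 (0.22) and Hoxa9 (0.10) had values above 0, and Hoxa6 (-0.37) and Hoxa10 (-0.32) had values below 0. The adjusted p of these genes ran from 0.139 (Hoxa10) to 0.709 (Hoxa9). Hoxa9, a gene of the posterior trunk, averaged 141.7 ± 65.3 CPM over the later metastases and 126.6 ± 7.51 over the primaries (SD, n = 6 each). The spread between its metastasis libraries was the wider: 79.6 to 244.3 CPM, against 115.4 to 134.6 in the primaries. Exons of Hoxa2 and Hoxa3 share 267 and 482 bases with a read-through gene on the same strand (Gm28308, 649 counts), so the assignment of reads between them is uncertain. Hoxa2 held 800 counts over the 15 libraries. Gm28308 itself passed as higher in metastasis against primary (log2 0.81, adjusted p = 0.0425). Hoxa11 shares 800 bases, 35% of its exon length, with Hoxa11os on the other strand. The library kit keeps the strand, but how strand was used in counting is not stated.

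The starts of these genes differ in base composition. The 250 bases upstream of the start (RefSeq, GRCm38.p6) are shown for Hoxa2 and Hoxa13, the anterior and posterior Hoxa genes that rose, and for Hoxb4 and Hoxb8, the members of the Hoxb3 to Hoxb8 run with an entry. Capitals mark copies of CATAAA or its complement TTTATG, letters that the hindgut factor Cdx2 is known to bind.
Hoxa2 (chr6:52164832-52165081, minus strand): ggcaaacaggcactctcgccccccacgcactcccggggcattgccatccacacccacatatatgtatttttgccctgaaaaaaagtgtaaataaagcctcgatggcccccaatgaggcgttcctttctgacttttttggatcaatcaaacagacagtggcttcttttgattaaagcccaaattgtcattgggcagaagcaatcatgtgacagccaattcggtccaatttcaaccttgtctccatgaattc
Hoxa13 (chr6:52260881-52261130, minus strand): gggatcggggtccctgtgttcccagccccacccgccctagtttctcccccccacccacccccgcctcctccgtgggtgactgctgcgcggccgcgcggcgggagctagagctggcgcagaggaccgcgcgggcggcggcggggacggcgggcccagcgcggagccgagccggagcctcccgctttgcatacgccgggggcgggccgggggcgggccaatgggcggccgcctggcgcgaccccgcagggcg
Hoxb4 (chr11:96318017-96318266, plus strand): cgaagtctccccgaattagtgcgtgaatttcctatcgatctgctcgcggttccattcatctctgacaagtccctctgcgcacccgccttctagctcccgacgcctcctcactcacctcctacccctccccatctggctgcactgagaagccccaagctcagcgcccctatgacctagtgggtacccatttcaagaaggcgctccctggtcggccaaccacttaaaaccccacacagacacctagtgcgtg
Hoxb8 (chr11:96281655-96281904, plus strand): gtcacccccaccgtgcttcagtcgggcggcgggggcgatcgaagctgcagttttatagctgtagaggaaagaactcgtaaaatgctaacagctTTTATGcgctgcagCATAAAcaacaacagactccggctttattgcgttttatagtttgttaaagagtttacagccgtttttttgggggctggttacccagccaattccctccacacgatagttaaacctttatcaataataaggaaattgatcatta

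The Hoxa13 window was 80.0% G or C with 35 CpG pairs, against 46.4% and 6 for Hoxa2, 58.0% and 14 for Hoxb4 and 44.4% and 12 for Hoxb8. Over all 32851 windows in the table the medians were 52.4% and 6 CpG pairs. In the Hoxb8 window TTTATG starts 157 bases and CATAAA 143 bases before the gene, and the other 3 windows shown had neither. These letters, searched on both strands, were in 5 of 24 Hox windows (22 genes with an entry) and in 10.8% of all windows. The letters AGATAA or TTATCT, known as a GATA factor motif, were in 0 of 24 Hox windows and 9.99% of all. These matches describe the letters of the windows and show no binding.

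Hoxb13, the most posterior Hoxb gene, lies 74.0 kb from Hoxb9 (chromosome 11, 96194316 to 96197447) and fell in the later metastases. It read 17.6, 19.6 and 18.7 CPM in Met2 and 10.8, 13.3 and 20.8 in Met3, against 23.3, 72.9 and 33.5 in Primary2 and 56.8, 48.5 and 58.9 in Primary3. All 6 metastasis libraries lay below all 6 primary libraries, with Primary2 replicate 1 the closest. Its difference in log2 was -1.54 (SE 0.25, adjusted p = 0.000808). Met1 stood at 119.7, 86.6 and 93.0 CPM, above every other library.

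Hoxb7, a trunk gene (chromosome 11, 96286623 to 96290162), fell the most. Its level was 4.22, 0 and 0 CPM in Met2 and 0, 3.52 and 0.105 in Met3, against 32.4, 31.4 and 25.4 in Primary2 and 28.7, 23.5 and 27.4 in Primary3. In each metastasis library it was below every primary library, and 3 of the 6 had no count. The fitted log2 change was -4.43 (SE 1.18, adjusted p = 0.0136), and its size depends on how the libraries at 0 are modelled: it ran from -8.27 to -4.10 over the alternatives. In Met1 the libraries split, with 0.651, 17.7 and 0.686 CPM.

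Hoxb8 (chromosome 11, 96281905 to 96285315), next to Hoxb7, read 7.04, 0.322 and 0 CPM in Met2 and 0, 0.981 and 0.367 in Met3, against 10.6, 7.23 and 10.5 in Primary2 and 7.62, 5.78 and 7.42 in Primary3. Met2 replicate 1 lay inside the range of the primaries and the other 5 metastasis libraries lay below it. Its difference in log2 was -2.94 (SE 0.91, adjusted p = 0.0273). The call ended without Met2 replicate 2, Met3 replicate 1 or 3, Primary2 replicate 3, or Primary3 replicate 1 or 3, each left out in turn (adjusted p up to 0.0591). Met1 held 1.10, 2.44 and 0.732 CPM of Hoxb8, below all primaries.

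The other 5 Hoxb genes had log2 values below 0 without passing: Hoxb4 -2.70 (adjusted p = 0.0505), Hoxb5 -2.40 (0.107), Hoxb3 -2.33 (0.152), Hoxb6 -2.22 (0.145) and Hoxb9 -0.76 (0.533). The metastasis libraries split into some with and some nearly without these transcripts. Hoxb6 read 20.6, 0.129 and 0.147 CPM in Met2 and 0, 9.17 and 0.524 in Met3, against 23.6, 21.2 and 27.9 in Primary2 and 25.8, 17.2 and 17.4 in Primary3. These sizes rest on Met2 replicate 1. Without it the log2 values were -5.02 for Hoxb6 (adjusted p = 0.00517), -4.99 for Hoxb3 (0.0155), -5.98 for Hoxb5 (0.00562), -4.56 for Hoxb4 (0.00677) and -2.16 for Hoxb9 (0.0397), and those of the called Hoxb7 and Hoxb8 were -8.27 and -4.85. Without Met3 replicate 2 they were -4.01 for Hoxb6 (0.0334), -4.58 for Hoxb3 (0.0295), -3.90 for Hoxb5 (0.0392) and -4.09 for Hoxb4 (0.0155). Limma-voom called Hoxb3 (0.00818), Hoxb4 (0.00369), Hoxb5 (0.00643) and Hoxb6 (0.00535). Hoxb4 passed under 8 of 19 alternatives, also with DESeq2 (0.0177).

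Hoxb3 to Hoxb8, 6 neighbouring genes, were all below the lowest primary library in 7 of the 9 metastasis libraries. In Met1 replicate 2 and Met2 replicate 1 the genes differed, with 3 of the 6 below every primary library. In Met2 replicate 1 these were Hoxb3, Hoxb4 and Hoxb7, and in Met1 replicate 2 Hoxb6, Hoxb7 and Hoxb8. The summed level of all 6 genes was 5.26, 50.6 and 4.39 CPM in Met1, 41.2, 0.516 and 0.220 in Met2, and 0.0539, 20.6 and 1.31 in Met3. In the primaries it was 79.5, 76.3 and 81.6 CPM (Primary2) and 79.3, 58.5 and 65.3 CPM (Primary3). In raw counts over the 6 genes this was 8 and 3 in Met2 replicates 2 and 3 and 1 in Met3 replicate 1, against 910 to 1722 in the primaries. Each metastasis group thus had 1 library with clearly more of these genes (Met1 replicate 2, Met2 replicate 1 and Met3 replicate 2) and 2 with far less, while no primary library fell below 58.5 CPM. These genes share their libraries, so they are not independent of each other.

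The sum made up 0.0205 to 6.29% of all Hox CPM in the 6 later metastasis libraries and 0.761 to 8.45% in Met1, against 13.7 to 16.7% in the primaries. Hoxa genes made up 73.8 to 95.7% of Hox CPM in the later metastases, against 60.4 to 69.5% in the primaries. The total Hox level was 263.3 to 755.9 CPM in Met2 and Met3, 514.9 to 598.7 CPM in Met1 and 422.5 to 522.0 CPM in the primaries.

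**Figure D3:**
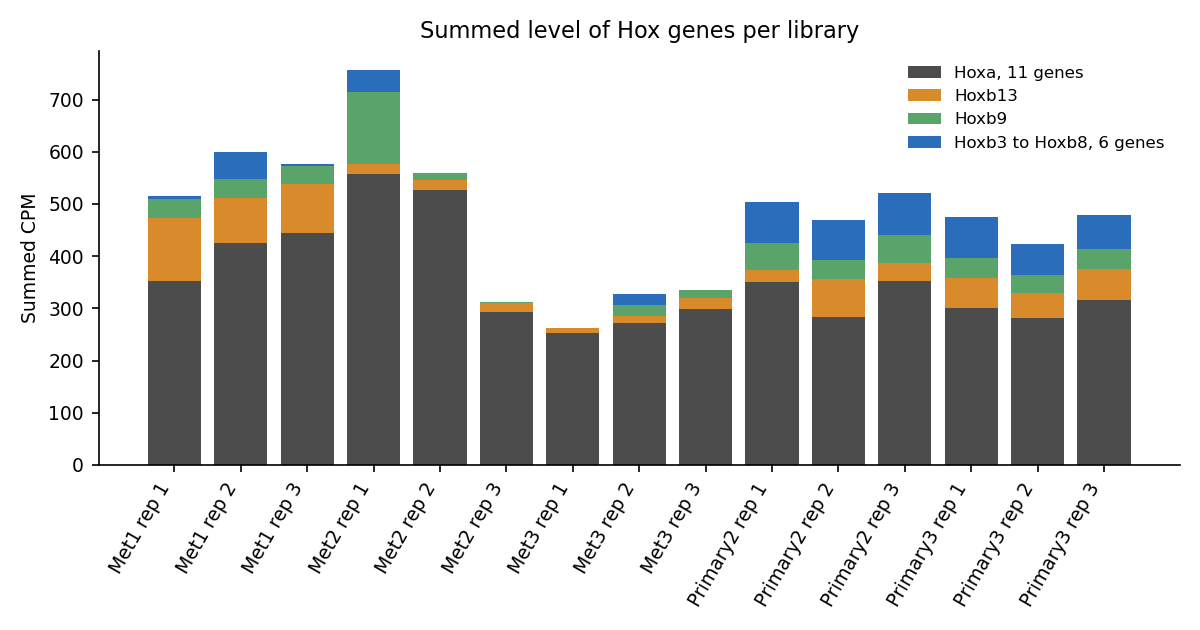
Summed CPM of the Hoxa genes, Hoxb13, Hoxb9 and Hoxb3 to Hoxb8 in each of the 15 libraries, as stacked bars. The Hoxb3 to Hoxb8 layer is 58.5 to 81.6 CPM thick in the primaries and is not visible in several metastasis libraries.

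Hoxb9, at the 5′ side of this run (chromosome 11, 96271457 to 96276595), had nearly no transcript in 2 of these libraries. It read 138.7, 13.8 and 0.514 CPM in Met2 and 0.216, 20.4 and 15.5 in Met3, against 50.8, 36.5 and 54.1 in Primary2 and 38.8, 34.9 and 37.4 in Primary3. In Met1 it read 37.3, 36.8 and 34.3 CPM, close to Primary3, also in replicates 1 and 3, where Hoxb3 to Hoxb8 were low. Met2 replicate 1 had more Hoxb9 than any primary library, and Met2 replicate 3 and Met3 replicate 1 had nearly none.

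**Figure D4:**
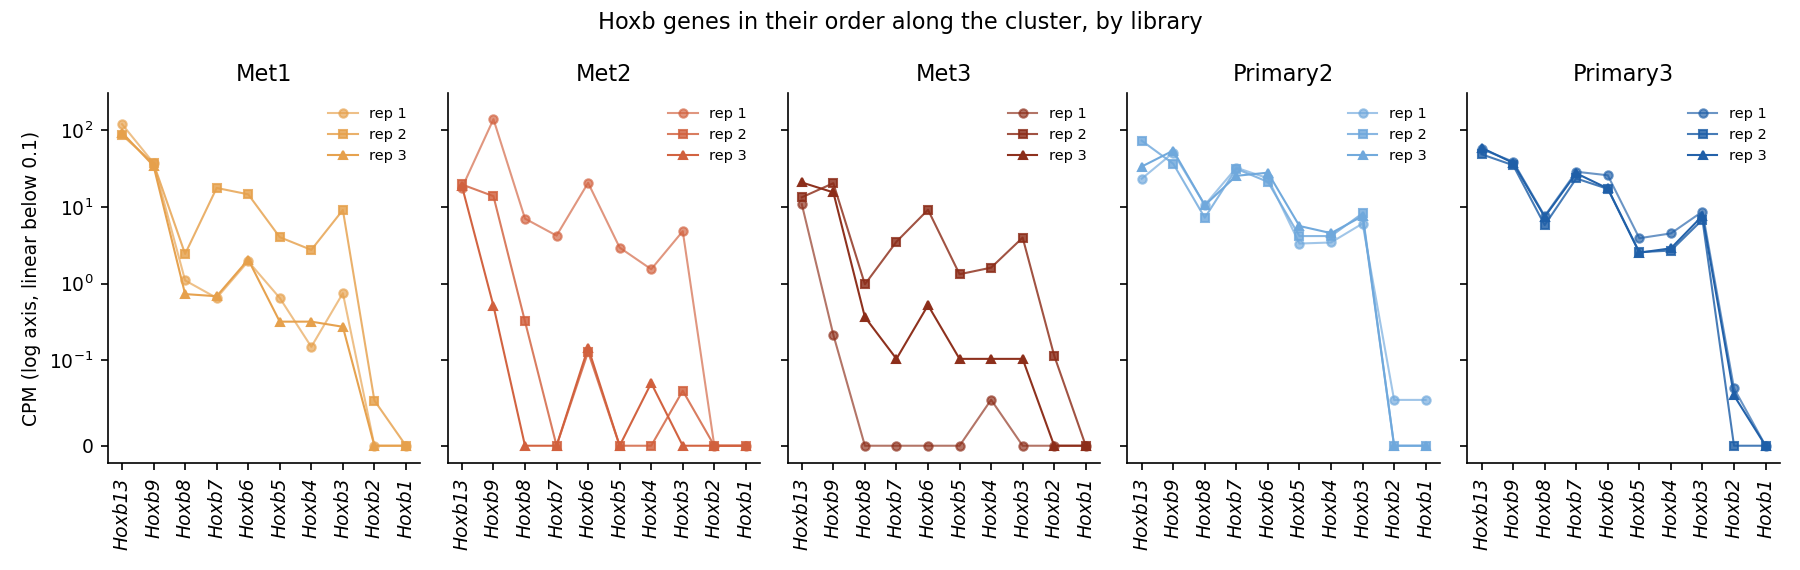
CPM of the 10 Hoxb genes in their order along the cluster, 1 panel per group and 1 line per library, on an axis that is logarithmic above 0.1 CPM and linear below. The lines of the metastasis groups spread from Hoxb9 or Hoxb8 onwards, with Hoxb13 at 10.8 CPM or more in every library, while those of the primaries stay closer together from Hoxb9 to Hoxb3.

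Within round 2, Met2 against Primary2 gave 4 members higher and 1 lower of 19 tested, against 5.5% of all genes higher and 6.35% lower. Hoxa13 (log2 2.07, adjusted p = 0.0353), Hoxa2 (1.64, 0.0159), Hoxa3 (1.37, 0.0353) and Hoxa11 (0.94, 0.0212) rose and Hoxb13 (-1.21, 0.04) fell. The count was 0 in a fit of only the 2 groups or without Primary2 replicate 3, 1 without Primary2 replicate 2, 2 without Met2 replicate 2, 3 without Primary2 replicate 1 and 8 without Met2 replicate 1. Without that library Hoxa13 (0.0837) and Hoxb13 (0.0731) lost their calls, and Hoxb4 (0.036), Hoxb5 (0.0296), Hoxb6 (0.0286), Hoxb7 (0.031) and Hoxb8 (0.0104) were called lower. The shares of all genes called in these alternative fits are not reported here.

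Within round 3, Met3 against Primary3 gave 3 members higher and 1 lower of 19, against 8.12% of all genes higher and 11% lower. Hoxa4 (log2 2.51, SE 0.48, adjusted p = 0.00508), Hoxa2 (2.01, SE 0.37, 0.00416) and Hoxa3 (1.32, SE 0.38, 0.0293) rose, and Hoxb13 fell (-1.87, SE 0.35, 0.00464). The calls of Hoxa2, Hoxa4 and Hoxb13 held under all 13 alternatives. That of Hoxa3 was lost without Met3 replicate 1 or 3, without any Primary3 library and with limma-voom (adjusted p up to 0.0881). Hoxb7 (-4.47, 0.0783), Hoxb8 (-3.94, 0.0591) and Hoxa13 (1.34, 0.113) did not pass, and Hoxa13 passed under 0 of 13 alternatives. Hoxb7 passed with limma-voom (0.0192), with no low-count filter (0.047), in a fit of only the groups compared (0.0291) and without Met3 replicate 2 (0.0408). Hoxb8 passed with limma-voom (0.0242), with no low-count filter (0.0348) and in a fit of only the groups compared (0.019).

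The test of the difference between the rounds, (Met3 minus Primary3) minus (Met2 minus Primary2), passed for 0 members, and 0% of all genes passed. At an unadjusted p under 0.05 there were 3 members and 1817 genes. DESeq2 called 0 members and 225 genes, and limma-voom 0 of both. Among the members the value farthest above 0 was Hoxa4 at 1.88, with an adjusted p of 0.321, and that farthest below was Hoxb8 at -2.00 (0.663).

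Along the metastasis rounds, Met3 against Met1 gave 2 members higher and 2 lower of 19, against 11.6% of all genes higher and 11.8% lower. Hoxa4 read 2.96, 2.77 and 3.09 CPM in Met3, against 0.701, 0.636 and 1.14 in Met1 (log2 1.82, SE 0.46, adjusted p = 0.0148). This call was lost without Met1 replicate 2 (0.0627). Hoxa2 rose by 1.75 (SE 0.36, adjusted p = 0.00605), with 3 of 3 Met3 libraries above all Met1 libraries. Hoxa10, a gene of the lumbar trunk and uterus (chromosome 6, 52231197 to 52240854), read 46.9, 47.9 and 58.1 CPM in Met3, against 95.3, 98.2 and 114.8 in Met1. It fell by 1.01 in log2 (SE 0.22, adjusted p = 0.00791). In Met2 Hoxa10 read 100.1, 101.1 and 48.8 CPM, and in the primaries 92.5, 73.9, 90.6 (Primary2), 81.3, 71.3 and 79.2 (Primary3). Hoxb13 fell by 2.73 (SE 0.36, adjusted p = 0.00115).

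Met2 against Met1 passed for Hoxa2 (log2 1.57, SE 0.36, adjusted p = 0.0166) and Hoxb13 (-2.42, SE 0.36, adjusted p = 0.00389), against 8.7% of all genes higher and 7.57% lower. The Hoxa2 call was lost in a fit of only the 2 groups (0.114), without Met1 replicate 2 (0.0625) or without Met2 replicate 2 (0.0517). Hoxa3 did not pass (0.87, 0.126) and passed without Met2 replicate 1 (1.22, 0.0167). Met3 against Met2 passed for 0 members, and 0.275% of all genes passed in either direction. At an unadjusted p under 0.05 there were 3 members and 2157 genes. DESeq2 called 2 members, Hoxa9 (adjusted p = 0.0279) and Hoxa11 (0.00663), both lower in Met3, among 588 genes, and limma-voom called 0 members among 4 genes. Without Met2 replicate 3, edgeR called 3 (Hoxa9, Hoxa10 and Hoxa11).

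Met1 against the primaries passed for 2 members, both posterior: Hoxa13 (log2 2.35, SE 0.46, adjusted p = 0.00337) and Hoxb13 (1.04, SE 0.28, adjusted p = 0.0165). Over all genes 14.9% were higher and 14.7% lower. Hoxb13 in Met1 thus lay above the primaries and in Met2 and Met3 below them, while the mean of Hoxa13 lay above theirs in all 3 metastasis groups. The comparisons share their Primary libraries. The Hoxb13 call was lost without Met1 replicate 1 (0.0735). Hoxb7 (-2.15, 0.25) and Hoxb8 (-2.51, 0.118) had values below 0 and did not pass. Hoxb7 passed with limma-voom (0.00658). Hoxb8 passed with limma-voom (0.0204) and in a fit of only the groups compared (0.00207). The count of members was 6 with limma-voom and 8 in a fit of only the groups compared. For these fits the share over all genes is not reported here.

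Primary3 against Primary2 passed for 0 of 19 members, and 0% of all genes passed. At an unadjusted p under 0.05 there were 2 members and 1063 genes. DESeq2 called 0 members among 44 genes, and limma-voom 0 members and 1 gene. Hoxa4 had the value farthest from 0 (log2 -1.18, adjusted p = 0.646). The Hoxb3 to Hoxb8 sum averaged 79.1 CPM over Primary2 and 67.7 over Primary3.

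**Figure D5:**
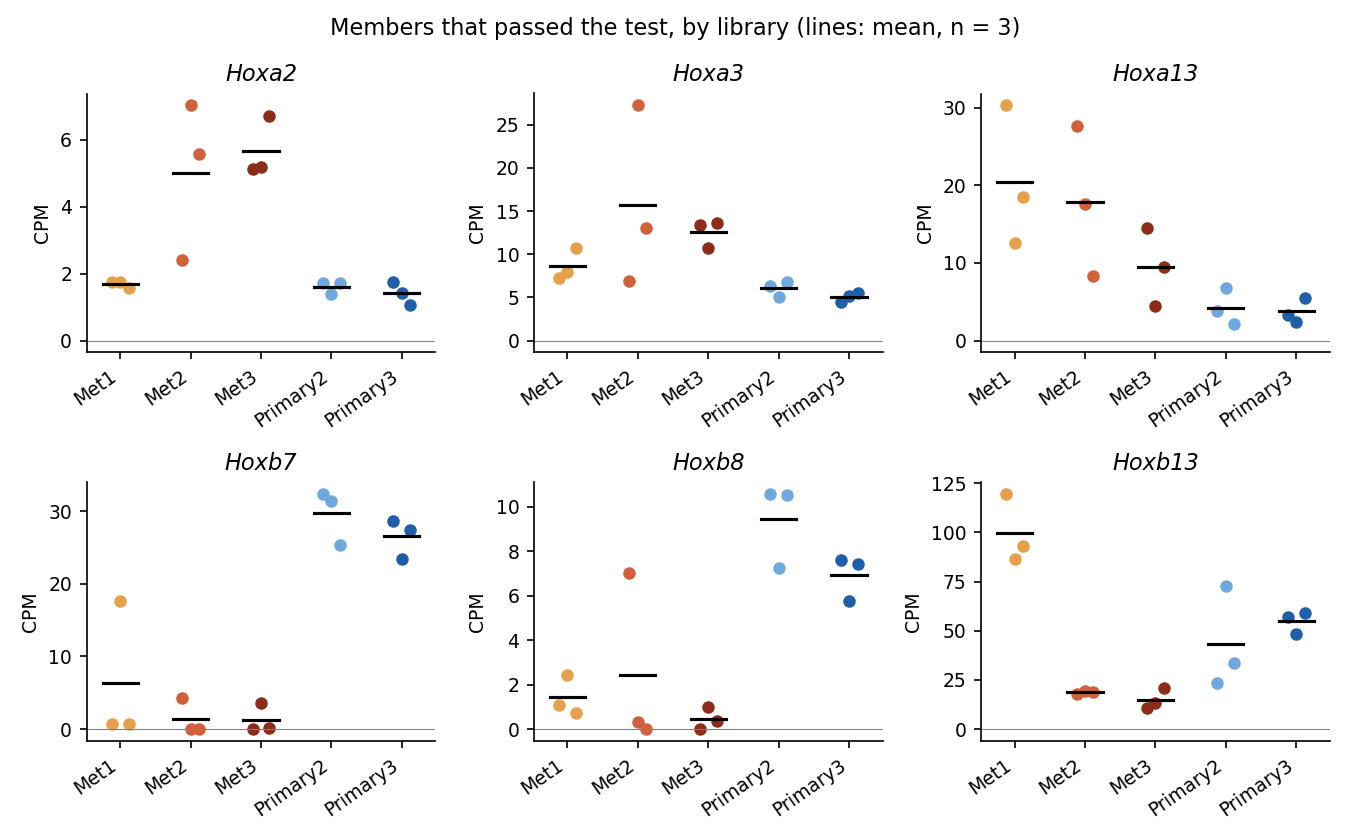
CPM of Hoxa2, Hoxa3, Hoxa13, Hoxb7, Hoxb8 and Hoxb13 in each library (points) with the group mean (lines, n = 3), on linear axes. Hoxb13 is highest in Met1 and lowest in Met2 and Met3, and Hoxb7 is near 0 in most metastasis libraries and at 23.5 CPM or more in the primaries.

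The clusters also hold noncoding genes, of which 11 of 15 listed were in the table and 4 were tested. Of these 2 rose and 0 fell in metastasis against primary (median log2 change 0.42, against 0.01 over all genes, of which 14.3% rose and 16.1% fell). Hoxaas3, transcribed opposite Hoxa3 to Hoxa7 (chromosome 6, 52175217 to 52215076, plus strand), read 13.2, 16.2 and 7.12 CPM in Met2 and 9.97, 6.001 and 9.17 in Met3. It read 1.45, 0.463 and 1.66 CPM in Primary2 and 0.741, 0.964 and 0.943 in Primary3. The groups were far apart, and Hoxaas3 had the strongest rise in the Hoxa cluster (log2 3.29, SE 0.36, adjusted p = 8.545e-05). It shares 297 bases of exon with Hoxa3 and 586 with Hoxa7. Hoxa11os, opposite Hoxa11, rose by 0.98 (SE 0.19, adjusted p = 0.00248), to 89.5 ± 43.4 CPM over the later metastases, against 44.0 ± 6.09 over the primaries (SD, n = 6 each). Hotairm1 (-0.13, adjusted p = 0.668) and Hoxaas2 (-0.44, 0.585) did not pass.

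Between Hoxb13 and Hoxb9 lies the long noncoding gene Gm53 (chromosome 11, 96251105 to 96264868). It read 48.4, 24.3 and 0.661 CPM in Met2 and 0, 12.1 and 19.5 in Met3, against 22.0, 27.9 and 24.1 in Primary2 and 25, 22.2 and 26.9 in Primary3 (log2 -0.62, adjusted p = 0.583). The 2 libraries with nearly no Gm53, Met2 replicate 3 and Met3 replicate 1, were the same 2 that had nearly no Hoxb9. The precursor region of Mir196a-1, also upstream of Hoxb9, was at 0 in these libraries (log2 -1.46, adjusted p = 0.121 over the comparison). Poly(A) libraries count the host transcript there, not the mature microRNA. Mature miR-196 is known to target Hoxb8 and other Hox transcripts. Its forms at Hoxb9 and at Hoxa9 share their seed (RefSeq, GRCm38.p6, bases 2 to 8 in capitals), while that of Mir10a, next to Hoxb4 and at 0 counts here, differs.
mmu-miR-196a-5p (Mir196a-1, chr11:96265187-96265208, plus strand): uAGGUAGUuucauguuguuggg
mmu-miR-196b-5p (Mir196b, chr6:52230129-52230150, minus strand): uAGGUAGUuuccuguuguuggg
mmu-miR-10a-5p (Mir10a, chr11:96317186-96317208, plus strand): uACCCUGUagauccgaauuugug

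Evx1, a homeobox gene beyond the posterior end of Hoxa (chromosome 6, 52313498 to 52318378), read 21.2, 36.3 and 10.02 CPM in Met1, against 1.99, 12.5 and 0.616 in Primary2 and 0.809, 2.12 and 2.42 in Primary3 (log2 2.91, SE 0.89, adjusted p = 0.0281). Without Met1 replicate 2 the adjusted p was 0.128, and without Met1 replicate 1, Primary2 replicate 1 or Primary3 replicate 1 or 2 it was 0.0506 to 0.0624. Of 27 listed genes that flank the clusters 21 were tested, and 2 rose and 4 fell in metastasis against primary, near the 14.3% and 16.1% of all genes. The uracil glycosylase Smug1, near Hoxc, was at 12.5 ± 1.93 CPM over the later metastases and 23.3 ± 3.32 over the primaries (log2 -0.90, adjusted p = 0.00104). The RNA-binding protein gene Hnrnpa3 on the Hoxd side (-0.41, 0.00414), and the heterochromatin protein genes Cbx1 (-0.40, 0.00634) and Cbx5 (-0.39, 0.0196), fell by less. Hnrnpa3, Cbx1 and Cbx5 lie more than 150 kb from the clusters. Without Met2 replicate 1, 11 genes of this list passed, and the share over all genes in that fit is not reported here. The call of Cbx5 was lost without Met2 replicate 3, Met3 replicate 1 or Primary2 replicate 2 (0.0532 to 0.0725).

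Hox proteins bind DNA with TALE homeodomain partners of the Pbx, Meis and Pknox families. Of 8 tested members 1 rose and 3 fell in metastasis against primary (median log2 change -0.37), beside 14.3% of all genes higher and 16.1% lower. Meis1 read 1.41, 2.06 and 3.45 CPM in Met2 and 4.96, 3.29 and 2.99 in Met3, against at most 0.118 CPM in any primary library (log2 5.38, SE 0.88, adjusted p = 0.000932). Its levels were low, and in Met1 it read 1.95, 1.38 and 0 CPM. Pbx4 (-2.13, 0.00191) and Pbx3 (-0.58, 0.0109) fell.

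Cdx2, the caudal homeobox factor that specifies hindgut and acts upstream of Hox genes in the embryo, was 1 of 2 tested members of 6 ParaHox and Cdx genes and rose. It read 72.6, 94.1 and 110.7 CPM in Met2 and 98.3, 69.2 and 73.6 in Met3, against 21.2, 13.02 and 22.5 in Primary2 and 30.1, 18.5 and 21.9 in Primary3 (log2 2.03, SE 0.18, adjusted p = 2.7e-05). All later metastasis libraries lay above all primaries, and Met1 lay between at 56.5, 50.8 and 38.9 CPM. Pdx1, the factor of pancreas and duodenum, had a log2 of 1.91 without passing (adjusted p = 0.1), and passed without Met2 replicate 1 (0.0341).

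Of 13 tested genes of the retinoic acid pathway, 0 rose and 3 fell (median -0.25), beside 14.3% and 16.1% of all genes. Aldh1a2, which makes retinoic acid, read 0.134, 2.19 and 0.147 CPM in Met2 and 0.431, 0.577 and 0.367 in Met3, against 12.8, 6.90 and 12.8 in Primary2 and 21.6, 24.8 and 46.1 in Primary3 (log2 -4.87, SE 0.83, adjusted p = 0.0012). All 6 metastasis libraries lay below all primaries. The retinol transporter Stra6 (-0.71, 0.00664) and the retinol dehydrogenase Rdh10 (-0.63, 0.0245) fell by less. The Rdh10 call was lost without Met2 replicate 2, Met3 replicate 1, Primary2 replicate 2 or Primary3 replicate 3 (0.0537 to 0.065). Without Met2 replicate 1, 7 genes of this list passed, and the share over all genes in that fit is not reported here. The receptor gene Rxrb did not pass (-0.18, 0.0649).

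Of 30 tested genes of the Polycomb complexes 6 rose and 3 fell (median 0.06), against 14.3% and 16.1% of all genes, so the count was near the share over all genes. Jarid2, a cofactor of Polycomb complex PRC2, rose by 0.75 (SE 0.15, adjusted p = 0.00341) and Pcgf1, a subunit of variant PRC1, by 0.44 (0.0156). The histone-binding subunits Rbbp7 (-0.39, 0.00884) and Rbbp4 (-0.29, 0.0233) fell. The call of Rbbp4 was lost without Met2 replicate 2 or 3, Met3 replicate 1, Primary2 replicate 3 or Primary3 replicate 1 (0.0526 to 0.0952). The count for this list was 3 with no low-count filter and ran from 3 (without Primary3 replicate 1) to 8 when 1 library was left out. It was 4 without Primary2 replicate 2 or Primary3 replicate 2, and 5 without Met2 replicate 2 or Primary2 replicate 3.

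Of 17 tested genes of MLL and Trithorax complexes and H3K27 demethylases, which counter Polycomb at Hox genes, 3 rose and 3 fell (median -0.02), which is near the 14.3% and 16.1% over all genes. Ash2l, a core subunit of MLL complexes, fell by 0.53 (SE 0.09, adjusted p = 0.00105) and the MLL cofactor Psip1 by 0.41 (0.0109). Mllt3, a reader protein of the elongation machinery and a partner in MLL fusions, rose by 1.16 (SE 0.25, adjusted p = 0.00398), and Aff1 by 0.47 (0.0262). The Aff1 call was lost without Primary2 replicate 1 or 2 or Primary3 replicate 3 (0.057 to 0.0613). Without Primary2 replicate 2, 3 genes of this list passed.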

How the data were processed

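Poly(A)-selected, strand-marking RNA-seq libraries were quantified with Salmon 1.3.0 against mm10, per the submitters' processing notes. The deposited table holds estimated counts per gene (expected counts, already whole numbers); how the authors summed transcripts to genes is not given in the sources used here. Of 54418 IDs, 54096 matched GENCODE M21 (GRCm38), and the 322 others held 0.0342% of counts. Genes were filtered with filterByExpr, scaled by TMM factors and fitted with 5 group means over all 15 libraries (edgeR 4.0.16 quasi-likelihood test, R 4.3.3, Benjamini-Hochberg over 14925 genes, called at an adjusted p under 0.05). The biological coefficient of variation was 0.343. The SE of a log2 change is approximate: the absolute change divided by the square root of the F statistic of its test. The fit was tested on simulated data. DESeq2 1.42.0, limma-voom (limma 3.58.1), other filters and scaling, a replicate block and leaving out each library were alternatives. CPM were scaled by TMM, and floors cover counting error only. Promoter and microRNA sequences came from RefSeq.

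The members and lists were chosen with earlier results of these data known. Members that passed in metastasis against primary, Met3 against Met1 or Met1 against primary have values for every library. From each of the 7 lists up to 4 genes with the smallest p in metastasis against primary were named. Members that passed elsewhere have values for that comparison, and the rest are given by range. Gm53, Mir196a-1 and Evx1 were singled out after their values were seen. Single values of a few genes are not reported here.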

Additional observations from a re-analysis of the deposited data

How the results depend on the processing

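Of 25 calls of a Hox gene in a comparison, 14 held under every alternative run and 0 changed sign. Of 146 without a call, 31 passed under some alternative. DESeq2 gave no adjusted p for Hoxb6, Hoxb7 and Hoxb8, which are left out of its counts of lost calls. Replicate numbers did not clearly pair the libraries: deviations of same-numbered libraries correlated at -0.126 to 0.268 (30 pairs, 8 over 0.1), and 8 of 15 libraries correlated best with their own number. With 3 libraries a group this check cannot decide whether same-numbered libraries share an origin. With the replicate block the count of members called was 8 in metastasis against primary (4 higher, 4 lower), 3 in place of 5 in Met2 against Primary2, and the main count in the other comparisons. A fit of only the groups compared gave 0 members in Met2 against Primary2, 7 in Met3 against Primary3 (4 in the fit of all groups), 1 in Met2 against Met1 (2) and 8 in Met1 against primary (2). Limma-voom gave 8 in Met3 against Primary3 and 6 in Met1 against primary, and DESeq2 gave 2 in Met3 against Met2 (0). Leaving out 1 library gave 6 to 12 members in metastasis against primary, 0 to 8 in Met2 against Primary2, 3 to 5 in Met3 against Primary3, 3 to 5 in Met3 against Met1, 1 to 3 in Met2 against Met1, 0 to 3 in Met3 against Met2 and 1 to 2 in Met1 against primary. For the lists, recomputed after seeing the data, it gave 3 to 8 Polycomb genes, 3 to 6 MLL and Trithorax genes, 1 to 2 ParaHox and Cdx genes, 2 to 7 retinoic acid genes and 4 to 11 flanking genes. With no low-count filter 3 Polycomb genes passed. For most of these fits the share of all genes called is not reported here. The cause of these shifts, also whether a count moved with the calls over all genes, was not tested. Depth limits what can be said of Hoxc, Hoxd, Hoxb1 and Hoxb2, at 3 counts or fewer in each library.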
